A study of Rattus norvegicus with 547 samples.

Results

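Nifedipine was given to cultivated rat hepatocytes for 24 h at 600 µM (high), 200 µM (middle) and 6.94 µM (low), and each concentration was set against its own solvent controls. The arrays were taken by their labels, as all treated arrays of this compound and the control arrays of the same concentration level. Earlier results of these data were known when this choice was made. This gave 18 of the 547 arrays of the series, with 3 treated and 3 control arrays at each level. The cells were hepatocytes of male Wistar rats kept as sandwich cultures, in which the cells lie between layers of matrix. Both groups of a level had the same culture and the same 24 h, and they differed in the compound. Each replicate was a different rat prepared on its own day, and the wells of a 6-well dish were divided between compound and solvent. The labels class nifedipine as a non-carcinogen. The series also holds 28 other compounds and 34 arrays of cells collected when incubation began (T0), which received neither solvent nor compound.

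Nifedipine is a dihydropyridine that blocks L-type calcium channels and is used to lower blood pressure. Hepatocytes clear it mainly by oxidation through cytochrome P450 enzymes of the CYP3A family. Many foreign compounds raise drug metabolizing enzymes in hepatocytes through the nuclear receptors PXR and CAR, and hepatocytes placed in culture lose part of their liver-specific expression over time. No table used here links the probe sets to genes. Each feature is therefore reported under its probe set ID with no gene or function, and the label hepatocyte was not checked against marker genes. In a culture, fewer cells of a type and less RNA per cell cannot be told apart.

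All values are log2 expression levels, 31042 probe sets were tested, and precision is limited by how many arrays a group has. The 18 nifedipine arrays had medians between 5.41 and 5.53, and the median correlation of an array with the other 17 lay between 0.979 and 0.993. The 95th percentile of an array ranged from 9.19 to 9.63. At the high level it was above the control by 0.44 in dish 1 and by 0.35 in dish 2, and it differed by -0.02 in dish 3. The control probe sets for GAPDH, a glycolytic enzyme, were higher at the high level by 0.11, but lower by 0.06 on the quantile-normalized scale (a difference of -0.06). Those for beta-actin, a cytoskeletal protein, differed by -0.22, -0.42 and -0.17 at the high, middle and low level, and by -0.43, -0.43 and -0.15 after quantile normalization.

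The first comparison asked how many probe sets each concentration changed. The middle concentration changed the most, the high concentration fewer and the low concentration nearly none. At 200 µM, limma called 502 probe sets (1.62% of those tested) at a Benjamini-Hochberg adjusted p under 0.05, of which 209 rose (0.673%) and 293 fell (0.944%). At 600 µM it called 247 (0.796%), of which 208 rose (0.670%) and 39 fell (0.126%). At 6.94 µM it called 2 (0.00644%), and both rose. The balance of directions thus differed between the upper levels, with rises making up 41.6% of the calls at the middle level and 84.2% at the high level. After quantile normalization these shares were 42.5% and 68.3%. With no replicate block they were 40.7% and 54.4%, and with the spread pooled over 29 compounds 46.9% and 67.5%. Among probe sets with a mean of at least 6 they were 43.9% and 90.5%. The size of the difference thus depended on the processing.

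Changes of at least 2-fold followed the same order. Among the calls at the middle level, 66 probe sets rose and 92 fell by this much (0.509% of those tested), against 60 and 6 at the high level (0.213%). The median absolute log2 fold change of the called probe sets was 0.79 at the high level. Over all probe sets the median log2 fold change was -0.03 at both upper levels and 0.00 at the low level.

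Counting at an unadjusted p under 0.05 gave another order, with 5366 probe sets at 600 µM, 3428 at 200 µM and 929 at 6.94 µM, where chance gives 1552.1. With no replicate block, limma called 406 probe sets at 600 µM (221 rises and 185 falls), 349 at 200 µM and 1 at 6.94 µM. Of the 406, 147 were among the 247 called with the block, in the same direction. The order of the upper levels by calls was therefore reversed without the block. Leaving out 1 dish of the high level moved its count widely, to 21 without replicate 1, 11 without replicate 2 and 1415 without replicate 3. Leaving out a replicate at all levels gave 373, 31 and 145 calls at the middle level, without replicates 1, 2 and 3.

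**Figure D1:**
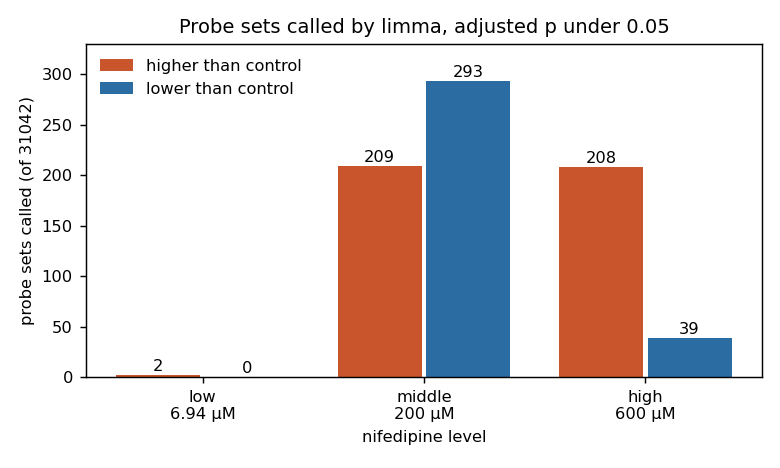
Number of probe sets called higher or lower than solvent control (vertical axis, of 31042 tested by limma at an adjusted p under 0.05) at each nifedipine level (horizontal axis). Rises numbered 209 at the middle and 208 at the high level, while falls numbered 293 and 39.

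A pair of probe sets rose at all 3 concentrations. For 1371076_at at the low level, the 3 control arrays read 8.28, 7.94 and 8.89 and the 3 treated arrays 10.45, 10.89 and 11.17. Controls of the middle level read 7.79, 8.87 and 8.37 and treated arrays 10.50, 11.44 and 10.84. Controls of the high level read 7.50, 7.63 and 7.93 and treated arrays 9.72, 10.14 and 9.63. Treated arrays lay above every control of their level, with no overlap at any concentration. The log2 fold changes were 2.47 (adjusted p 3.17e-04), 2.59 (3.83e-05) and 2.14 (2.91e-04) from the low to the high level by limma, each ± 0.17 (SE), or 5.54-fold, 6.00-fold and 4.42-fold. None of the differences between levels was called. That between high and low was -0.33 (95% interval -0.85 to 0.20, adjusted p 0.625 by limma), which does not show that the levels acted alike.

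The second of the pair, 1387118_at, was among the brighter probe sets in control cells. Its controls at the low level read 10.41, 10.56 and 11.65, and its treated arrays 12.41, 12.44 and 12.87. Treated arrays of the middle level read 13.39, 13.48 and 12.99 against controls of 10.45, 11.38 and 10.72. Those of the high level read 13.25, 12.93 and 12.94 against controls of 10.27, 10.20 and 10.45. No treated array overlapped with the controls of its level. The log2 fold changes were 1.70 ± 0.18 (SE), 2.44 ± 0.18 and 2.73 ± 0.18 from low to high, with adjusted p of 0.0164, 8.19e-05 and 5.45e-05 by limma. The difference between high and low, 1.03 (95% interval 0.47 to 1.59), had an adjusted p of 0.202. The call at the low level was lost with no replicate block (adjusted p 0.205), without replicate 2 (1) and without replicate 3 (0.0972). When the low level was fitted alone, neither of the pair was called (adjusted p 0.211 for 1371076_at and 0.845 for 1387118_at).

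The largest rise at both upper levels was that of 1387583_at, which was dim in control cells. Its controls at the high level read 4.86, 5.10 and 4.76 and its treated arrays 8.82, 9.11 and 8.71. In the dishes of the middle level the controls read 4.85, 4.03 and 4.74 and the treated arrays 9.38, 8.03 and 9.98. All 6 treated arrays of these levels lay far above their controls. The controls lay below the median of the arrays, and no detection call was used here, so the size of the change from such a low level is uncertain. The log2 fold changes were 3.98 ± 0.19 (SE, adjusted p 4.78e-06 by limma) and 4.59 ± 0.19 (9.72e-07). At the low level the controls read 4.53, 4.45 and 4.02 and the treated arrays 4.40, 4.86 and 4.10, and the groups overlapped. The log2 fold change there was 0.12 (adjusted p 0.999).

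The probe set 1370269_at had the next largest rise at both upper levels. Its controls at the high level read 9.62, 9.93 and 9.89 and its treated arrays 12.67, 12.74 and 12.62. Controls of the middle level read 10.32, 9.44 and 10.04 and treated arrays 12.98, 13.40 and 13.02. The groups were apart at both levels. The log2 fold changes were 2.86 ± 0.27 (SE, adjusted p 8.98e-04 by limma) and 3.20 ± 0.27 (1.97e-04). At the low level the treated arrays read 9.99, 9.67 and 11.15 against controls of 9.40, 9.39 and 9.37. The groups did not overlap there either, yet the log2 fold change of 0.88 was not called (adjusted p 0.999), and replicate 3 moved most.

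The largest fall at the high level was also called at the middle level. This probe set, 1368247_at, was bright in control cells and read 10.82, 11.18 and 11.30 in the controls of the high level against 8.53, 9.47 and 9.36 in the treated arrays. Controls of the middle level read 11.50, 12.75 and 11.64 and treated arrays 8.66, 10.16 and 9.33. Treated arrays lay below all controls of their level. The log2 fold changes were -1.98 ± 0.23 (SE, adjusted p 0.00487 by limma) and -2.58 ± 0.23 (3.35e-04), and at the low level -0.17 (adjusted p 0.999). At the high level the call was lost without replicate 2 (adjusted p 0.165).

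The other large fall at the high level was that of 1370912_at. Its controls read 9.32, 9.67 and 9.83 and its treated arrays 7.18, 7.97 and 7.83. The groups did not overlap. The probe set changed by -1.95 ± 0.27 (SE) on the log2 scale, with an adjusted p of 0.00972 by limma. With no replicate block the adjusted p was 0.0595, and it was 0.291 without replicate 2 and 0.0517 without replicate 3. Its change was -2.56 at 200 µM (adjusted p 7.55e-04) and -0.21 at 6.94 µM.

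The largest fall at the middle level was that of 1367631_at. Its controls read 9.91, 10.52 and 9.80 and its treated arrays 6.92, 7.25 and 7.48. It changed by -2.86 ± 0.19 (SE) on the log2 scale (adjusted p 3.94e-05 by limma). At the high level the controls read 9.53, 9.58 and 9.87 and the treated arrays 8.22, 8.90 and 8.56. The groups were apart at both levels, but the fall was smaller at 600 µM, with a log2 fold change of -1.10 (adjusted p 0.0282). At the low level it was -0.19.

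**Figure D2:**
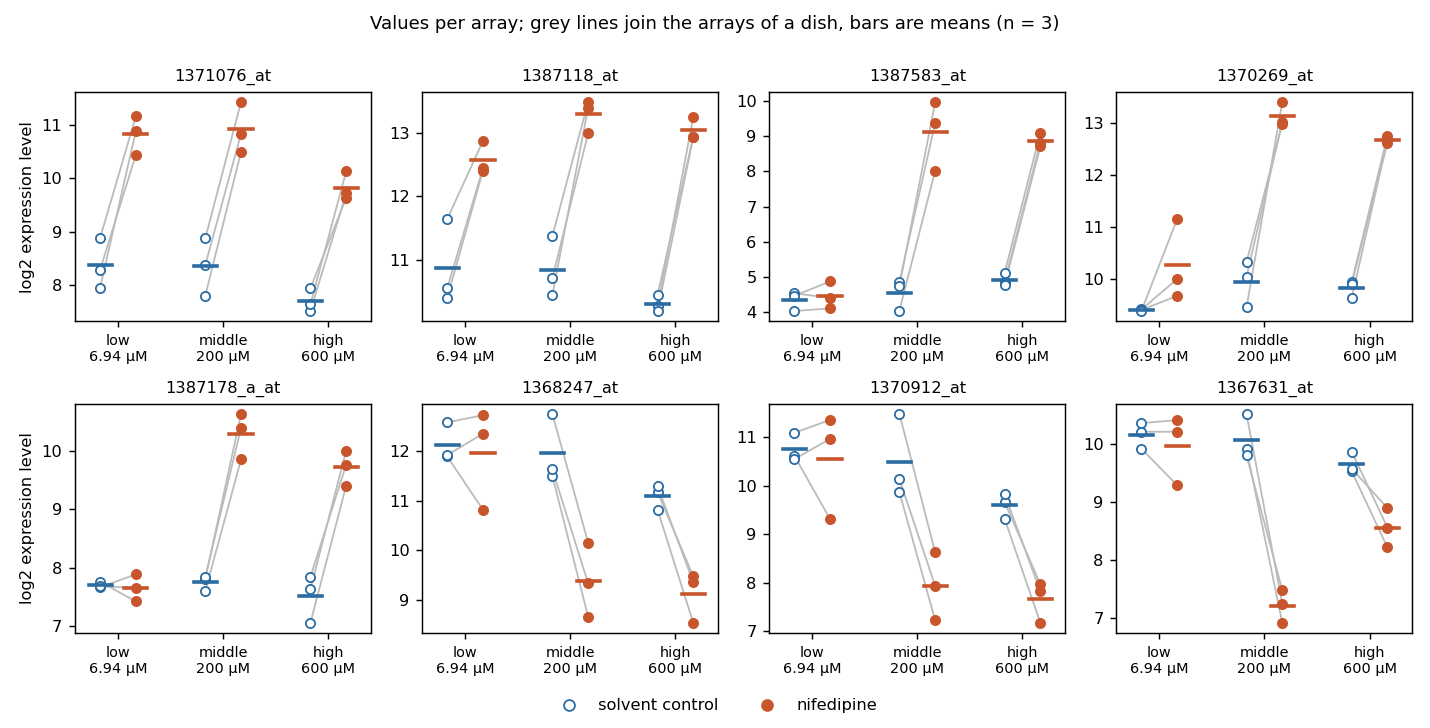
Log2 expression level (vertical axes) of 8 probe sets in each of the 18 nifedipine arrays, by level (horizontal axes); open points are solvent controls, filled points treated arrays, grey lines join the arrays of a dish and bars are means of 3. The first pair is raised at all levels, while 1387583_at lies between 4.10 and 4.86 in treated arrays of the low level and at or above 8.03 in those of the upper levels.

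The next comparison asked how far the upper levels shared their calls. They shared 112 probe sets called in the same direction, 45.3% of the calls at the high level and 22.3% of those at the middle level. Rises were shared to a like degree from both sides, 93 in all, or 44.7% of the rises at high and 44.5% at middle. Falls were not, since the 19 shared falls made up 48.7% of the falls at high but 6.48% of those at middle. A further 114 rises and 20 falls were called at the high level alone, and 116 rises and 273 falls at the middle level alone. Being called at one level and not at the other does not show that the effects differed, and most of these probe sets moved the same way at both. Of the 273 falls called at the middle level alone, 240 were also negative at the high level, with a median log2 fold change of -0.28 against -0.77 at the middle level. Over all probe sets, 19947 of 31042 had the same sign at both levels.

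The higher of these concentrations did not bring larger changes throughout. Of the 93 shared rises, 42 were larger at the middle than at the high level, and of the 19 shared falls, 16 were. The median log2 fold change of the shared falls was -1.39 at the middle and -0.86 at the high level, and that of the shared rises 0.88 and 0.93. Over all probe sets, 12915 of 31042 had the larger absolute change at the middle level. Each change is taken from its own level's controls. At high and middle, control means were 11.1 and 11.96 for 1368247_at, and 9.61 and 10.49 for 1370912_at. Treated means were 9.12 and 9.38, and 7.66 and 7.93, no higher at 600 µM. For 1367631_at, controls were at 9.66 and 10.08, and for 1367661_at at 8.63 and 9.09. Their treated means, 8.56 and 7.22, and 7.19 and 6.66, were higher at 600 µM. The part of the control levels was not tested.

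The low level showed little of these changes. Of the 93 shared rises, 82 had a low level effect under 0.2 of that at the high level, and 5 reached 0.5 of it. Of the 19 shared falls, 15 were under 0.2 and 0 reached 0.5. These probe sets were chosen by their effect at the upper levels, so the ratios are a description with no reference share. Irrespective of the test, 6 probe sets rose and 0 fell by 2-fold at the low level. Over the 31042 probe sets, which do not act as independent replicates, the level effects correlated with r = 0.563 between high and middle, 0.284 between middle and low and 0.113 between high and low. The levels have separate control arrays, and same-numbered dishes may come from 1 rat.

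**Figure D3:**
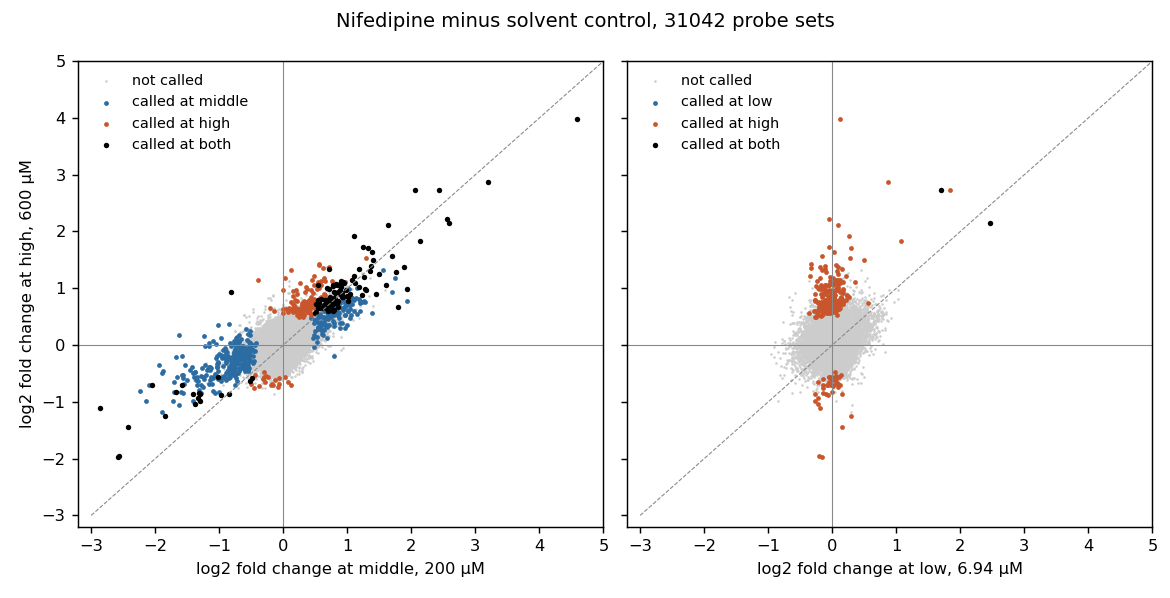
Log2 fold change at the high level (vertical axes) against that at the middle level (left, horizontal axis) and at the low level (right) for 31042 probe sets; colours give the level or levels at which limma called a probe set, and the dashed line marks equal change. On the left most calls have the same sign at both levels, and the falls called at the middle level alone lie above the dashed line, with larger changes at the middle level. On the right most calls at the high level lie near 0 on the horizontal axis.

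The difference between levels was then tested itself. Between high and middle, limma called 4 probe sets (0.0129%), and for all 4 the effect was more positive at 600 µM. The largest difference was that of 1372440_at, which was called at the middle level alone, and its adjusted p was the highest of the 4. Its controls there read 7.39, 7.72 and 7.54 and its treated arrays 6.09, 6.01 and 5.70, while at the high level the controls read 6.96, 6.82 and 7.23 and the treated arrays 7.41, 7.09 and 7.05. The groups were apart at 200 µM and overlapped at 600 µM. Its log2 fold changes of -1.62 and 0.18 differed by 1.80 (adjusted p 0.0248 by limma). The remaining pair of calls had differences of 1.60 and 1.35.

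One probe set, 1372729_at, was called in opposite directions. At the high level its controls read 8.18, 8.11 and 8.37 and its treated arrays 9.19, 9.26 and 9.01, a log2 fold change of 0.93 (adjusted p 0.0135 by limma) with no overlap. In the dishes of the middle level the controls read 8.42, 7.07 and 8.58 and the treated arrays 7.84, 5.90 and 7.88, a log2 fold change of -0.82 (adjusted p 0.0129). There the groups overlapped, because replicate 2 was low in control and treated arrays, although all 3 dishes fell. The difference of 1.75 had an adjusted p of 0.0149, and of 0.728 with no replicate block. Without replicate 1, 2 or 3, limma called 0 differences between high and middle, with 1059, 498 and 4360 probe sets at an unadjusted p under 0.05.

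Between high and low, 5 probe sets were called (0.0161%), all more positive at 600 µM, and with no replicate block 25. The largest difference was that of 1387583_at, 3.86 (adjusted p 3.03e-04 by limma), followed by 1387178_a_at with 2.27 (0.00194). The latter read 7.05, 7.63 and 7.84 in the controls of the high level and 9.41, 10.01 and 9.77 in the treated arrays. At the low level the controls read 7.76, 7.66 and 7.68 and the treated arrays 7.42, 7.88 and 7.66, so the groups were apart at 600 µM and overlapped at 6.94 µM. Its difference was no longer called without replicate 2 (adjusted p 0.255) or 3 (0.152). The count was 13, 1 and 1 without replicates 1, 2 and 3.

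Between middle and low, 42 probe sets were called (0.135%), 17 more positive (0.0548%) and 25 more negative (0.0805%) at 200 µM. The differences on the positive side were led by 1387583_at (4.47, adjusted p 6.09e-05 by limma) and 1387178_a_at (2.60, 4.58e-04). On the negative side they were led by 1367631_at (-2.67, 0.00283) and 1367661_at (-2.58, 0.0152). For 1367661_at, the controls of the middle level read 8.81, 9.57 and 8.90 and the treated arrays 7.11, 6.91 and 5.96, with no overlap, while at the low level its log2 fold change was 0.15. With no replicate block its difference had an adjusted p of 0.0576. The count fell to 1 without replicate 2 and to 2 without replicate 3, and it was 57 without replicate 1.

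The dishes of a level did not respond alike. At the high level the dish differences (treated minus control over all probe sets) correlated with r = 0.553 between dishes 1 and 2, -0.01 between dishes 1 and 3 and 0.148 between dishes 2 and 3. Within the middle level the correlations were 0.249, 0.445 and 0.319, and at the low level 0.415, -0.238 and -0.223 in the same order. Dish 3 thus stood apart from the others at the high and low level, and at the middle level no dish did. Dishes numbered 1 correlated across levels, with 0.597 between high and middle, 0.479 between high and low and 0.64 between middle and low. For dishes numbered 2 these values were 0.125, 0.147 and -0.124, and for dishes numbered 3 they were 0.195, 0.178 and -0.324. The largest rise was present in every dish of the high level, where 1387583_at rose by 3.96, 4.01 and 3.96.

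Several array measures moved with the treatment at the high level. The excess of the 3' over the 5' probe set, a usual check of RNA integrity on these arrays, was lower in the treated arrays for GAPDH (0.361 against 0.479) and beta-actin (2.45 against 2.67), with no overlap between groups. Hexokinase control probe sets were also lower without overlap (4.46 against 4.57, a difference of -0.11, and -0.04 after quantile normalization). The 2 controls with the lowest 95th percentile were those of dishes 1 and 2 at the high level, the dishes whose changes correlated. With 3 arrays against 3 an exact permutation test that ignores the dishes cannot go below a p of 0.1. A two-sided sign-flip test over the 3 dishes cannot go below 0.25, so these measures were not tested. Against the same-numbered controls of the middle and low levels in place of its own, the high level gave 516 calls (303 rises and 213 falls), of which 165 were among the 247. After quantile normalization limma called 183 probe sets at the high level (125 rises and 58 falls), of which 141 were among the 247. Beyond these counts, the part of the array measures was not tested.

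**Figure D4:**
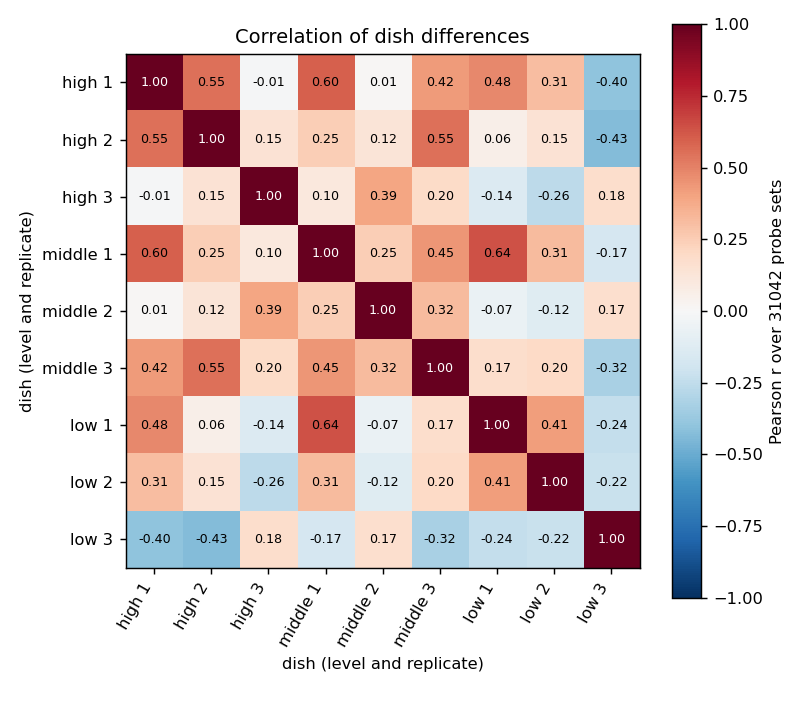
Pearson correlation, over 31042 probe sets, between the treated minus control differences of the 9 nifedipine dishes (both axes: level and replicate number). Dish 3 of the low level is negatively correlated with dishes 1 and 2 of every level except middle 2, and dishes 1 of the 3 levels are correlated by 0.479 to 0.64.

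A further comparison set the nifedipine calls against what culture itself does. For each probe set, the level in the solvent controls of the other 28 compounds (84 values, each the mean of a compound and replicate number) was compared with that in the 34 T0 arrays, so that no nifedipine array entered. Probe sets that nifedipine raised were mostly lower in solvent culture than at T0, and those it lowered mostly higher. Of all probe sets, 50.2% were higher in culture. Of the rises at the high level 73 of 208 were (35.1%), and of those at the middle level 63 of 209 (30.1%). Of the falls at the high level 29 of 39 were higher in culture (74.4%), and of those at the middle level 207 of 293 (70.6%). The falls at the high level were not alike in this, since all 19 shared with the middle level were higher in culture but 10 of the 20 called at the high level alone were (50.0%), the latter close to the share of all probe sets.

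Large culture effects were counted separately. Losses of at least 2-fold in culture applied to 1.32% of all probe sets, but to 45 of the 208 rises at the high level (21.6%) and 26 of the 209 at the middle level (12.4%). Gains of at least 2-fold applied to 0.457% of all probe sets, and to 8 of the 39 falls at the high level (20.5%) and 35 of the 293 at the middle level (11.9%). The opposite combinations were also above the share of all probe sets in several groups. Gains in culture applied to 5 of the rises at the middle level (2.39%) and 3 of those at the high level (1.44%), and losses to 16 of the falls at the middle level (5.46%) and 1 at the high level (2.56%). These are counts with no test. Most groups of called probe sets were also brighter than the rest. The median control level was 8.12 for rises at high, 7.38 for rises at middle and 7.99 for falls at middle, against 5.45 over all probe sets. For falls at high it was 6.05, and for the 20 of these called at the high level alone it was 5.07. Of those 20, 85% had a control level below 6, against 60.6% of all probe sets. The part of brightness in the shares was not tested.

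The leading probe sets showed both patterns and exceptions. The probe set 1387583_at was at 7.27 ± 1.38 (SD, n = 34) in T0 arrays and at 4.46 ± 0.30 (SD, n = 84) in the other solvent controls, so nifedipine at the upper levels put it above its T0 mean. The probe set 1368247_at went from 10.33 ± 1.28 to 12.84 ± 0.43. In the nifedipine controls of the high level it was lower than that, at 11.1 ± 0.25 (SD, n = 3). Nifedipine lowered it from there to 9.12, a log2 fold change of -1.98. In contrast, 1371076_at was higher in culture (8.12 ± 0.50) than at T0 (6.84 ± 0.52), and nifedipine raised it further. The same held for 1370269_at, which was at 7.61 at T0 and 8.83 in culture.

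**Figure D5:**
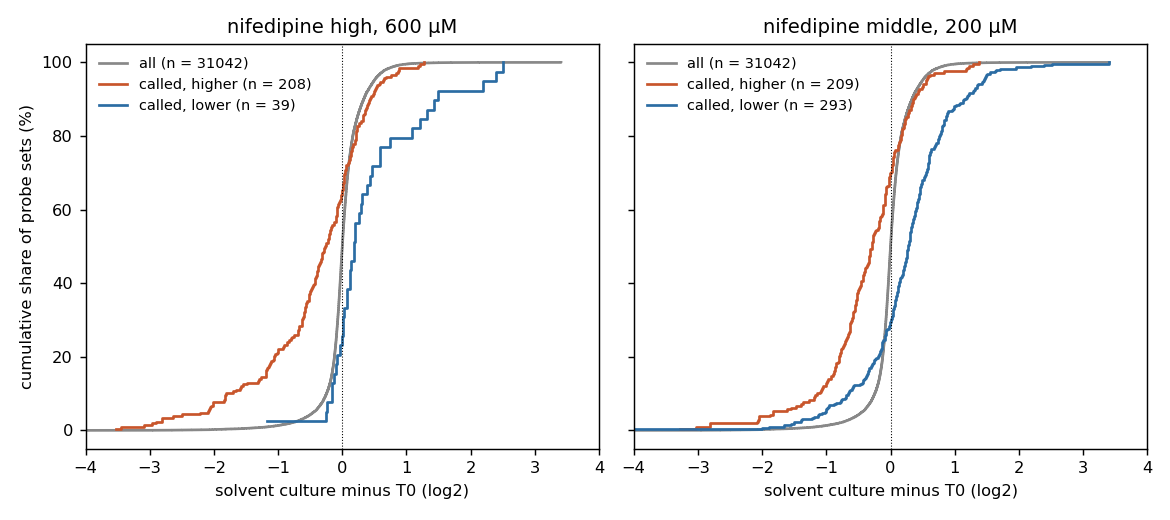
Cumulative share of probe sets (vertical axes, %) by the solvent culture minus T0 difference (horizontal axes, log2), for all probe sets and for those called higher or lower with nifedipine at the high (left) and middle (right) level. Below 0, called rises lie to the left of the curve for all probe sets, and above 0 called falls lie to its right, while in the lower tail the falls cross to its left.

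Among the 29 compounds, nifedipine ranked 17 by the number of calls at the highest level. The rank is uncertain, since its count of 247 moved to between 11 and 1415 when 1 dish of the high level was left out. Few of the nifedipine calls were on probe sets called for no other compound, with direction left aside. Of its rises at the high level, 99.0% were also called in at least 1 of the other 28 compounds, in either direction, against 69.4% of all probe sets. In at least 5 others, 61.5% of these rises and 46.2% of the falls were called, against 9.17% of all probe sets. For the middle level these shares were 56.5% and 59.0%. In no other compound were 2 of the rises and 4 of the falls called. In most compounds with shared calls the opposite direction prevailed, as for N-nitrosomorpholine (19 same, 118 opposite) and Wy-14643 (40 and 111). The same direction prevailed for piperonylbutoxide (40 and 9), C.I. Direct Black (57 and 47), the nitrosamine NNK (15 and 11), 3-methylcholanthrene (11 and 3) and dimethylnitrosamine (4 and 3). The part of brightness in these shares was not tested.

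The leading probe sets were chosen by nifedipine effects or by differences that include them. This choice favours an extreme rank for nifedipine, so its ranks are a description with no reference share. Of these probe sets, 4 had their most positive effect among the highest levels of all 29 compounds under nifedipine. They were 1387583_at, 1387118_at, 1387178_a_at and 1372729_at. The last was changed more by cyproterone acetate, in the other direction (-2.68 against 0.93), and 8 of the 28 others lowered it by the test. For 1387178_a_at the next highest compound was ethionine with 0.21, and 13 of the 28 others lowered this probe set by the test while 0 raised it. For 1371076_at, 13 of the 28 others lowered it and 2 raised it, and piperonylbutoxide (3.34) exceeded nifedipine (2.14). For 1370269_at nifedipine ranked 3, with 3-methylcholanthrene at 4.76 and clonidine lowest at -3.40.

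Nifedipine at 600 µM was also compared directly with the highest levels of 3 other compounds, whose concentrations differed. Cyproterone acetate (100 µM), a steroidal antiandrogen, and piperonylbutoxide (31.69 µM), an insecticide synergist that inhibits P450 enzymes, are both known to raise drug metabolizing enzymes in rat liver. Clonidine (909 µM) is another drug against high blood pressure and acts on alpha-adrenergic receptors. The effects differed from those of cyproterone acetate for 985 probe sets (3.17%), of piperonylbutoxide for 672 (2.16%) and of clonidine for 1352 (4.36%), by limma on the difference. Nifedipine was the more positive for 741 (2.39%), 500 (1.61%) and 942 (3.03%) of these. After quantile normalization the share of such probe sets went from 75.2% to 59.3% for cyproterone acetate and from 74.4% to 55.5% for piperonylbutoxide.

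The largest differences came mostly from the other compounds. Against cyproterone acetate they were 1370151_at (4.53) and 1372248_at (3.97), with nifedipine at 0.52 and 0.11 and cyproterone acetate at -4.01 and -3.86, and in the other direction 1385635_at (-2.58) and 1374806_at (-2.51). Against piperonylbutoxide, 1398250_at differed by -5.04 and 1368934_at by -2.96, where nifedipine had 0.04 and 0.07. In the positive direction 1386065_at differed by 2.53 and 1391211_at by 2.27. For 1391211_at the difference was not called with no replicate block (adjusted p 0.103) or without replicate 2 (0.417), and for 1386065_at it was not called without replicate 2 (0.121).

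Against clonidine the largest differences came from probe sets that nifedipine itself had raised. The probe set 1370269_at differed by 6.27 ± 0.22 (SE, adjusted p 7.91e-10 by limma), since nifedipine raised it by 2.86 and clonidine changed it by -3.40. The probe set 1387583_at differed by 4.51 (9.11e-08), with clonidine at -0.53. In the other direction 1385635_at differed by -2.39 and 1372725_at by -2.17, with nifedipine at -0.12 and 0.13. Without replicate 2, limma called 229 differences from cyproterone acetate, 27 from piperonylbutoxide and 67 from clonidine. For piperonylbutoxide the balance then turned, with nifedipine the more positive for 8 and the more negative for 19.

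The probe sets raised at all levels separated the comparators. For 1387118_at, cyproterone acetate had 2.09 and piperonylbutoxide 2.03 against 2.73 for nifedipine. The differences of 0.63 (95% interval -0.10 to 1.37, adjusted p 0.405 by limma) and 0.70 (-0.04 to 1.44, 0.271) were not called, which does not show that the effects were equal. Clonidine had 0.13, and the difference of 2.60 (1.86 to 3.33) was called (adjusted p 7.05e-04). For 1371076_at, cyproterone acetate had -1.10 and clonidine -1.74, both called as different from nifedipine, while the difference of -1.20 from piperonylbutoxide was not called (-1.91 to -0.49, adjusted p 0.0704).

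For 1387583_at, piperonylbutoxide had 2.88, below nifedipine by a called difference of 1.10 (95% interval 0.58 to 1.61, adjusted p 0.0305 by limma). Cyproterone acetate had 0.15. For 1370269_at the order was turned, with piperonylbutoxide at 4.50 and nifedipine lower by a called difference of -1.63 (-2.11 to -1.16, adjusted p 0.0021). Of all probe sets, piperonylbutoxide changed 2.67% by the test against its own control, cyproterone acetate 3.25% and clonidine 2.67%. Of the 247 nifedipine calls at the high level, piperonylbutoxide had 40 in the same and 9 in the opposite direction. The 40 were 16.2% of the nifedipine calls and 4.83% of those of piperonylbutoxide. For cyproterone acetate these counts were 24 and 36 and for clonidine 15 and 38.

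Over all 31042 probe sets the effects of nifedipine at the high level correlated with those of piperonylbutoxide by -0.238, of cyproterone acetate by -0.05 and of clonidine by 0.0964. The highest correlations were with N-nitrosopiperidine (0.448), ethionine (0.363) and dimethylnitrosamine (0.303). In N-nitrosopiperidine the 95th percentile of the arrays also rose with treatment, by 0.28, against 0.26 for nifedipine at the high level. For ethionine it rose by 0.06 and for dimethylnitrosamine by 0.10. Among these compounds the order of the correlations thus did not follow this measure throughout. In every other compound but methylcarbamate (-0.121 and 0.01), the correlation and the percentile difference had the same sign. The percentile differed most for acetaminophen (-0.751, correlation -0.39), methylendianiline (-0.41, correlation -0.37) and dehydroepiandrosterone (0.367, correlation 0.298). With the middle level of nifedipine, where that percentile differed by 0.004 from control, the correlations were 0.178 for N-nitrosopiperidine, 0.277 for ethionine and 0.19 for dimethylnitrosamine. The part of this array measure in the correlation was not tested.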

How the data were processed

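Expression was measured with biotin-labelled RNA on Affymetrix arrays. The deposited values are on the log2 scale, with each probe set measured once on an array, and per the submitters' processing notes the authors used RMA (robust multi-array average), whose version is not given in the sources used here. The scale was read from the range of 2.00 to 14.6. The 57 control probe sets were kept out of the tests, which left 31042. Groups came from the labels. With R 4.3.3 and limma 3.58.1 (lmFit, eBayes), treated minus control differences within dishes (same replicate number) were fitted for the 3 levels together, and in a second fit for the highest levels of 4 compounds. Adjusted p are Benjamini-Hochberg over all probe sets, called under 0.05. The SE is limma's moderated SE, with 3 dishes a level.

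The dish comes from the series' design text. In the data, deviations of same-numbered treated and control arrays correlated by 0.176 on average (-0.407 to 0.465, over 0.1 in 7 of 9 pairs), and those of different numbers by -0.082. Deviations from a group mean cancel out, so the second average follows largely from the first and is no separate reference. At the high level the same-numbered values were 0.237, 0.256 and -0.407, and treated array 3 correlated with control array 2 by 0.434. Simulated data with known changes gave recovery at the high level of 17.6%, 74.2% and 100% for log2 changes of 0.5, 1 and 2, with 6 unchanged probe sets called.

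Named probe sets follow a rule, the largest called changes each way, with at most 2 each way printed per comparison. For a level against its control, all dishes also had to change in the same direction. This was not asked for differences between levels or compounds. 1372729_at and the sets called at all levels also come from the rule. The planned rule asked for gene symbols, and 23 pathway lists, 6 marker lists and a promoter motif search were planned. They were not applied, as no table used here pairs probe sets with genes. The arrays, comparators, rule and lists were chosen with earlier results of these data known. Alternatives tried were no replicate block, leaving out replicates, quantile normalization, trend and robust eBayes, a filter on dim probe sets (mean at least 6), spread pooled over 29 compounds, an adjusted p under 0.01, each level alone and 3 added after seeing the data.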

Additional observations from a re-analysis of the deposited data

Results flagged for a closer look

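The effects of nifedipine differed between concentrations, by a limma test of the difference itself, for 8 of the results given above. Between the high and middle level these were 1372440_at (1.80) and 1372729_at (1.75). Between the high and low level they were 1387583_at (3.86) and 1387178_a_at (2.27). Between the middle and low level they were 1387583_at (4.47), 1387178_a_at (2.60), 1367631_at (-2.67) and 1367661_at (-2.58). Values are differences of log2 fold changes. With 3 arrays a group, single arrays were not tested as outliers.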

How the results depend on the processing

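No named probe set changed direction under any alternative. Across the settings not added later, the call on a named probe set was kept 236 times and lost 38 times, and across those added after seeing the data 30 and 4 times. Counts moved more. With no replicate block the pairing was dropped, and limma called 406 at the high level, 1 at the low level and 25 between high and low. Block or no block changed no other count by over 1.5 times. Leaving out each replicate at all levels gave 7 to 284 calls at high, 31 to 373 at middle and 1 to 2 at low, with fewer dishes in each fit. For the differences it gave 0 to 0 (high minus middle), 1 to 13 (high minus low), 1 to 57 (middle minus low), 229 to 1108 (cyproterone acetate), 27 to 334 (piperonylbutoxide) and 67 to 1210 (clonidine). An adjusted p under 0.01 left 43 at high, 154 at middle, 1 at low, 0, 3 and 11 for the level differences in the same order, and 522, 131 and 476 for the compounds. The spread pooled over 29 compounds gave 474 at high (320 rises and 154 falls), 4 at low, and 15, 61 and 108 for the level differences. Quantile normalization gave 70 for middle minus low and 886 for clonidine. Trend and robust eBayes gave 11 for high minus low. The low level fitted alone gave 0 calls, with 1048 at an unadjusted p under 0.05. Alternatives chosen after seeing the data were a random block of the replicate number (14 for high minus low and 70 for middle minus low), leaving out single dishes at high (11 to 1415) and the controls of the other levels (516). Where no cause is named it was not tested. A term for array medians under or over 5.4, a split made from the data and not a labelled batch, gave no value. It was planned for the comparison of 4 compounds, if treated or control arrays of a compound there fell on both sides, and none did. All nifedipine arrays had medians over 5.4.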
